A study of Arabidopsis thaliana with 9 samples.

Results

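The late-only strong risers are 64 loci of the 32310 in the files, all from Arabidopsis thaliana seedlings moved from 22 °C to 4 °C. They were chosen by their TPM (Salmon's share of the transcripts, corrected for transcript length) summed per locus. Each had a mean of at least 2 TPM at 22 °C, a mean after 3 h in the cold from 20% below to 25% above that level, a mean after 12 h of at least 4 times that level, and a lowest 12 h library above the highest library of the other groups. The groups are wild-type Col-0 seedlings at 22 °C (0 h), after 3 h at 4 °C and after 12 h at 4 °C, with 3 libraries each and no other treatment or allele. A library is a pool of seedlings from its own plate. The seedlings are described as 10 days old in the sample labels and 12 days old in the treatment notes, and the plates are said to have held sucrose. The groups were collected at different hours of the day and the cold chamber was dimmer, so temperature, light and time of day cannot be told apart in any comparison with 22 °C.

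Arabidopsis answers cold in waves. Within hours, transcription factors of the CBF family, which bind the CRT/DRE element, and others are induced, and they are followed by COR (cold regulated) genes, sugar metabolism and changes of membrane lipids that accompany cold acclimation. Abscisic acid, a hormone of drought and cold, acts on an overlapping set of genes through the ABRE element, and the clock acts on many of them through the evening element. Whole seedlings were sampled, so fewer cells of a type and less RNA per cell cannot be told apart. Summed over 4 leaf markers, the libraries held 27980 to 29400 TPM at 22 °C, 24240 to 27770 TPM at 3 h and 22430 to 25820 TPM at 12 h, and 6 root markers summed to 2893 to 4163 TPM over all 9 libraries. Nearly all of the root sum was BGLU23, at 2826 to 4042 TPM, so it describes mainly that gene. The next highest root marker, CASP1, was at 44.5 to 74.9 TPM. Seed storage genes summed to 7.20 TPM at most, with SESA3 at 0 in every library. In the fit described below, which scales the libraries to each other, the leaf markers had a median log2 change of −0.045 at 3 h and 0.018 at 12 h. That of the root markers was 0.246 and 0.238. The part of these marker levels in the results was not tested. The libraries hold 15910839 to 24291683 assigned reads. In the library of 12 h replicate 3, summed antisense TPM was a larger percentage of sense TPM than in the others. The source of this difference was not tested, and 2 of the 64 loci are antisense RNAs.

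In all, 344 loci rose at least 4 times by 12 h from 2 TPM or more with no overlap of the 12 h libraries with the rest. Of these, 267 were more than 25% above their 22 °C level at 3 h, 164 of them at 2 times or more, 13 were more than 20% below it, and the 64 late-only risers lay between. Their 22 °C means ran from 2.23 to 121 TPM with a median of 11.2, and their 12 h means from 9.47 to 1272 TPM with a median of 72.4. The ratio of the 12 h mean to the 22 °C mean had a median of 6.30 and a range from 4.05 to 23.1. It was at least 8 in 23 loci, at least 16 in 6 and under 5 in 24. The 3 h mean was above the 22 °C mean in 43 loci and below it in 21. The single libraries of 22 °C and 3 h overlapped in 55 loci, all 3 h libraries lay above all 22 °C libraries in 8, and below them in 1. These values define the loci and are given as a description. The counts of overlapping libraries have no share over all loci beside them, so they show no difference from other loci.

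**Figure D1:**
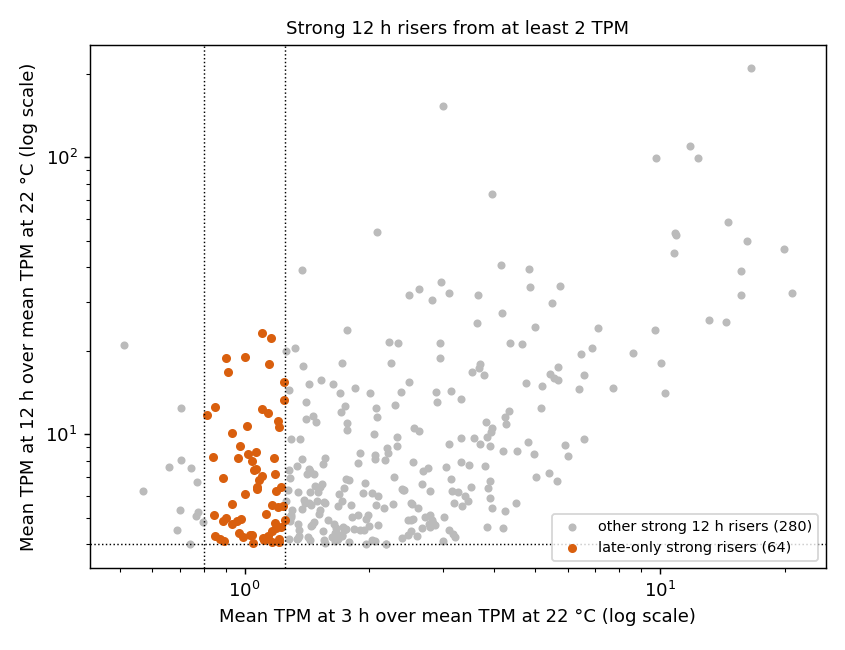
Each point is a locus with at least 2 TPM at 22 °C and a 12 h mean at least 4 times higher, with the 3 h ratio on the x axis and the 12 h ratio on the y axis, both logarithmic. Dotted lines mark the limits of the rule, and the 64 late-only risers (orange) reach 23.1, while the other 280 (grey) include ratios up to 209.

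In the fit across 20460 genes, a gene was called higher or lower when its adjusted p was below 0.05 and its log2 change was 0.5 or more in size. Of the 64 loci, 0 were called at 3 h by edgeR, where 7.05% of all genes tested were called higher and 3.47% lower, and 17 had an unadjusted p under 0.05. At 12 h, 64 of 64 were called higher, beside 15.5% of all genes tested, with 17.7% lower. The choice of the loci fixes both counts. Their fitted changes at 3 h ran from −0.27 to 0.38 on the log2 scale with a median of 0.16, against a median of −0.01 over all genes. Without a fold minimum, 7 loci passed at 3 h, all higher, with AT1G74840 at 0.35 (SE 0.07) and NPX1 at 0.34 (SE 0.10), and DESeq2 called none with the fold minimum. Without 3 h replicate 1, CYCT1;3 was called at 0.58 (SE 0.11), and it was the 1 locus called. The counts of 17 and 7 have no share over all genes beside them, so they show no difference from other genes.

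How far the choice rests on single libraries was read by choosing loci with 2 replicate numbers and reading them in the third. No source ties same-numbered libraries, so a held-out ratio rests on a single library per group, matched by number alone. The rule was chosen with earlier results of these data known, so the counts are a description and no test. Of 57 loci chosen without replicate 1, 53 reached 4 times and 57 reached 2 times in that replicate, 23 kept within the 3 h window, and 21 did both at 4 times. Without replicate 2, the numbers were 60, 64, 32 and 30 of 64. Without replicate 3, they were 37, 58, 35 and 23 of 59, with a median 12 h ratio of 4.76 in the held-out replicate. Loci near the limits lie close to loci that were left out. At the 12 h limit, CIPK2, RD2 and AT2G37520 had ratios of 4.05, 4.07 and 4.08, and DI21, P5CS2 and AT2G21630 had 3.95, 3.98 and 4.00, the last just under the limit. At the upper 3 h limit, ACA8, SIP1 and CYCT1;3 had 3 h ratios of 1.242, 1.248 and 1.249, and AT2G38465, HFR1 and PUB45 had 1.26, 1.26 and 1.27. At the lower 3 h limit, AT3G17130, AT3G12510 and AT2G21180 had 0.812, 0.840 and 0.843, and MEE25, AT5G19875 and AT4G23000 had 0.768, 0.773 and 0.794. At the 22 °C limit, ERF38, AT4G12750 and IAA29 had means of 2.23, 2.39 and 2.83 TPM, and SLAH2, CSLG1 and RGL3 had 1.76, 1.82 and 1.83 TPM.

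The promoters show what the rule did not use. In the window from 250 bases before to 50 bases after the RefSeq start (TAIR10.1), an ABRE core (ACGTGT or ACGTGG, either strand) stood in 25 of 64 promoters, or 39.1%, against 31.8% of the 267 risers that were already up at 3 h and 18.0% of all 32072 promoters. A CRT/DRE core (CCGAC) stood in 24, or 37.5%, against 31.5% and 14.8%. Both stood in 10 (15.6%, against 12.7% and 3.33%). The evening element AAAATATCT differed more in its share between the kinds of risers, with 5 of 64 late-only promoters (7.81%) against 21.7% of the early ones and 2.66% of all, and its shorter form AATATCT, which lies inside it, stood in 28.1%, 37.8% and 11.2%. The G-box CACGTG, which overlaps ABRE cores, stood in 18.8%, 15.0% and 7.13%. The CCA1-binding site AAAAATCT (10.9%, 8.61% and 7.53%), the CAMTA box CCGCGT or ACGCGT (4.69%, 10.9% and 4.16%), the W-box TTGACC or TTGACT (29.7%, 28.5% and 31.7%), site II TGGGCC (15.6%, 12.0% and 14.4%) and the telo box AAACCCTA (1.56%, 2.25% and 6.25%) complete the search. The rule takes only loci with at least 2 TPM at 22 °C. Over the 18162 promoters of such loci, the shares were 20.7% (ABRE), 16.4% (CRT/DRE), 3.01% (evening element) and 11.7% (its shorter form). They were 9.04% (G-box), 8.12% (CCA1-binding site), 4.69% (CAMTA box), 32.2% (W-box), 19.3% (site II) and 5.48% (telo box). A match is a description of the letters, and these shares were not tested.

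The 250 bases before the start are shown for 3 members in which ABRE and CRT/DRE cores stand near each other or repeat, and for TAG1, in which no searched motif was found. Capitals mark the motif letters, sequences read 5′ to 3′ along the gene, and the positions are those of the RefSeq genome TAIR10.1.
AT5G04250, chr5:1175755-1176004, plus strand: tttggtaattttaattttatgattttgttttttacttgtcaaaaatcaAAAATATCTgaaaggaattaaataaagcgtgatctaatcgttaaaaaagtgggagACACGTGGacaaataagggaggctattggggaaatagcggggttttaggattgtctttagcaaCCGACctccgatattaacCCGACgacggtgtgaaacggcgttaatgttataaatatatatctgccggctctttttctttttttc
AT1G77680, chr1:29196291-29196540, minus strand: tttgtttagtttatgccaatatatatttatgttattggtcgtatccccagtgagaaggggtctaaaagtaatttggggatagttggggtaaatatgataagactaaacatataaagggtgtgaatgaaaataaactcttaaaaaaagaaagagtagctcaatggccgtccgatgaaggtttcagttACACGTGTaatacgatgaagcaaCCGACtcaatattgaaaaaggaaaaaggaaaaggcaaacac
COR413IM1, chr1:10289667-10289916, minus strand: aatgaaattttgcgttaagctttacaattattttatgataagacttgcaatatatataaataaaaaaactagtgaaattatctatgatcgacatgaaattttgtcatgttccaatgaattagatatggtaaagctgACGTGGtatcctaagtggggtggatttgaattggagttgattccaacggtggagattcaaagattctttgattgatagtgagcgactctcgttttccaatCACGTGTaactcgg
TAG1, chr2:8425867-8426116, plus strand: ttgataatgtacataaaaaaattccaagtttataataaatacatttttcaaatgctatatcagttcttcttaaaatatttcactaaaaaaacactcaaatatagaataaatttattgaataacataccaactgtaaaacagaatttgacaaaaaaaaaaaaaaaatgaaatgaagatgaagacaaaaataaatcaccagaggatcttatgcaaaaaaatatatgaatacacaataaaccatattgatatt

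AT5G04250 has 2 CRT/DRE cores and a G-box that holds both forms of the ABRE core at its edges, after an evening element. AT1G77680, a ribonuclease II/R family protein, and COR413IM1 each have a G-box in the window near the start. AT5G04250 rose 16.8 times and TAG1, with none of the motifs in this window, 18.0 times.

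HVA22D and HVA22E belong to the HVA22 family, small membrane proteins named after a barley gene that abscisic acid induces. HVA22D was the most abundant of the 64 loci at 12 h. It stood at 44.2, 64.0 and 63.7 TPM at 22 °C, at 68.1, 69.1 and 61.5 TPM after 3 h, and at 1235, 1278 and 1303 TPM after 12 h. The 22 °C and 3 h libraries overlap and the 12 h libraries stand far above them. HVA22E went from 19.4, 18.8 and 16.5 TPM through 24.6, 22.7 and 16.2 TPM to 93.2, 116 and 93.8 TPM. Their fitted 12 h changes were 4.67 (SE 0.12) and 2.79 (SE 0.14) on the log2 scale. Of the 5 other HVA22 genes tested, 0 were called by edgeR at either time, and 0 by DESeq2, with an unadjusted p under 0.05 in 1 at 3 h and 4 at 12 h. Their median was −0.06 at 12 h, with HVA22A at −0.23 (SE 0.08) and HVA22F at 0.53 (SE 0.24).

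Sugar metabolism holds several of the largest ratios. SUS1 encodes sucrose synthase, which splits sucrose reversibly into UDP-glucose and fructose. It had 16.8, 17.5 and 18.6 TPM at 22 °C, 18.5, 18.3 and 16.3 TPM at 3 h, and 335, 353 and 316 TPM at 12 h. The early libraries of SUS1 are nearly level and the later ones are 19.0 times the 22 °C mean. SPS2F, a sucrose phosphate synthase, went from 13.4, 24.95 and 22.7 TPM and 31.1, 17.5 and 16.9 TPM to 118, 150 and 120 TPM. Its libraries spread more at 22 °C and 3 h than those of SUS1. SIP1, a raffinose synthase family gene, went from 27.4, 37.2 and 36.0 TPM and 45.2, 42.8 and 37.5 TPM to 509, 556 and 490 TPM, so that its 3 h libraries all lay above its 22 °C libraries.
Of the 8 other sucrose genes tested, 1 rose by 12 h (SUS6, 0.85, SE 0.15) and SPS4F (−0.88, SE 0.08) and SUS4 (−0.94, SE 0.17) fell, with a median of 0.17, and the members SUS1 and SPS2F changed by 4.47 (SE 0.09) and 2.87 (SE 0.22). Of the 7 other galactinol and raffinose genes tested, 5 rose by 12 h and 3 of the 7 had risen by 3 h. Among them, GolS3, a galactinol synthase, was called at both times (1.41, SE 0.20, and 7.45, SE 0.20), and GolS2 was called at 12 h (−0.49, SE 0.28, at 3 h and 2.39, SE 0.27, at 12 h). TPPI, a trehalose phosphate phosphatase, rose from 4.05, 5.16 and 4.59 TPM to 34.7, 39.6 and 36.2 TPM. The 8 trehalose phosphate synthase genes of the list, none a member, gave 4 called higher and 1 lower at 12 h. Of 14 genes that break down starch, 8 had risen and 1 had fallen by 12 h, and 1 had risen by 3 h. AT4G33070, a pyruvate decarboxylase, the first step of ethanol fermentation, went from 11.7, 12.7 and 18.8 TPM and 15.1, 12.6 and 11.2 TPM to 246, 281 and 286 TPM. Of its 31-base words, 2.61% also occur in other loci.

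**Figure D2:**
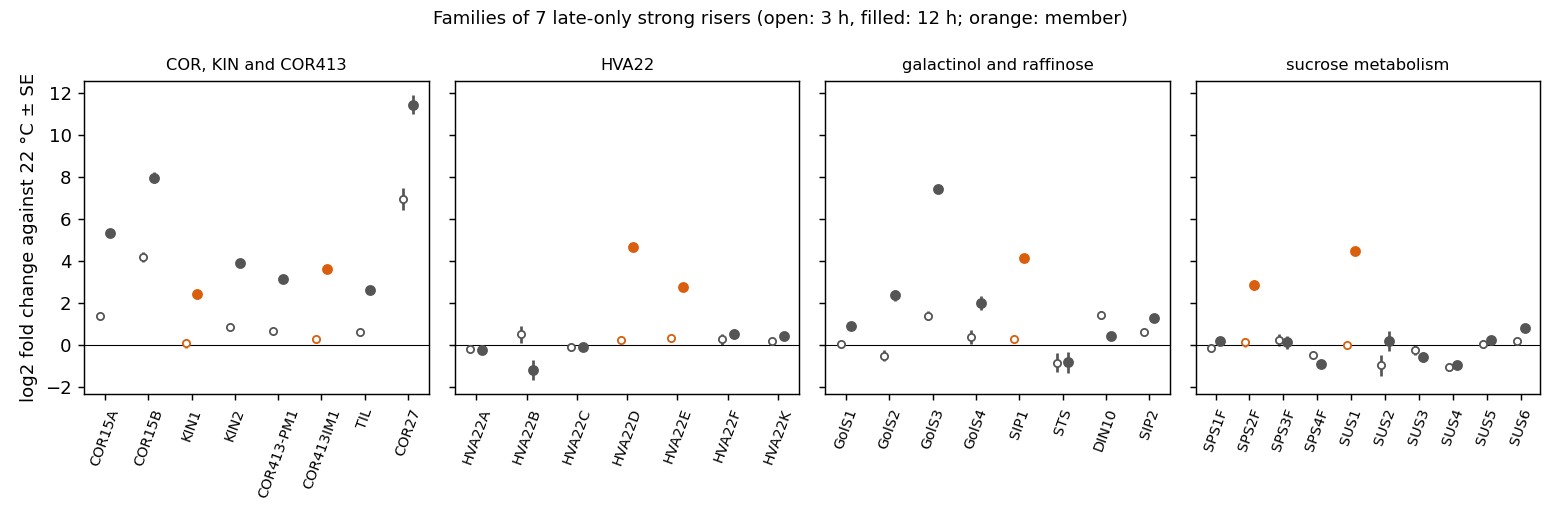
Fitted log2 fold changes against 22 °C (y axis, points with SE) at 3 h (open) and 12 h (filled) for the genes of 4 lists that hold 7 of the 64 loci (orange), with the other genes of the lists in grey. HVA22D reaches 4.67 and SUS1 4.47 at 12 h, and HVA22A and SUS3 are at −0.23 and −0.54.

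The COR list holds loci that are flat at 3 h and loci that are not. COR413IM1, which encodes a chloroplast inner envelope protein, went from 11.4, 16.5 and 17.4 TPM and 15.5, 22.1 and 17.3 TPM to 147, 178 and 155 TPM. KIN1 went from 84.9, 149 and 129 TPM and 163, 106 and 106 TPM to 440, 494 and 640 TPM, with 12 h replicate 3 the highest. Without that library its ratio is 3.85 in place of 4.33, which is below the limit of 4. Of its 31-base words, 7.88% also occur in other loci, the most of them in KIN2, the locus next to it. The 6 other genes of the list that matched a RefSeq symbol were called higher at both times, COR15A by 1.39 (SE 0.12) and 5.34 (SE 0.14), KIN2 by 0.88 (SE 0.11) and 3.92 (SE 0.12), and their median was 4.63 at 12 h. Another entry of the list, AT1G29390, has a different symbol in RefSeq (COR314-TM2) and was left out of this count. It was at −0.14 at 3 h and higher at 12 h (1.02, SE 0.08). RD2, a gene induced by drying, went from 74.1, 93.6 and 85.0 TPM to 331, 376 and 321 TPM. Of 17 genes for LEA proteins and dehydrins, which protect drying cells and of which none is a member, 11 rose and 1 fell by 12 h and 7 rose and 1 fell by 3 h, with a median of 1.39 at 12 h. In RefSeq RD2 overlaps AT2G21630 by 14 bases on the same strand, and AT2G21630 went from a mean of 3.96 TPM to 15.8 TPM.

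**Figure D3:**
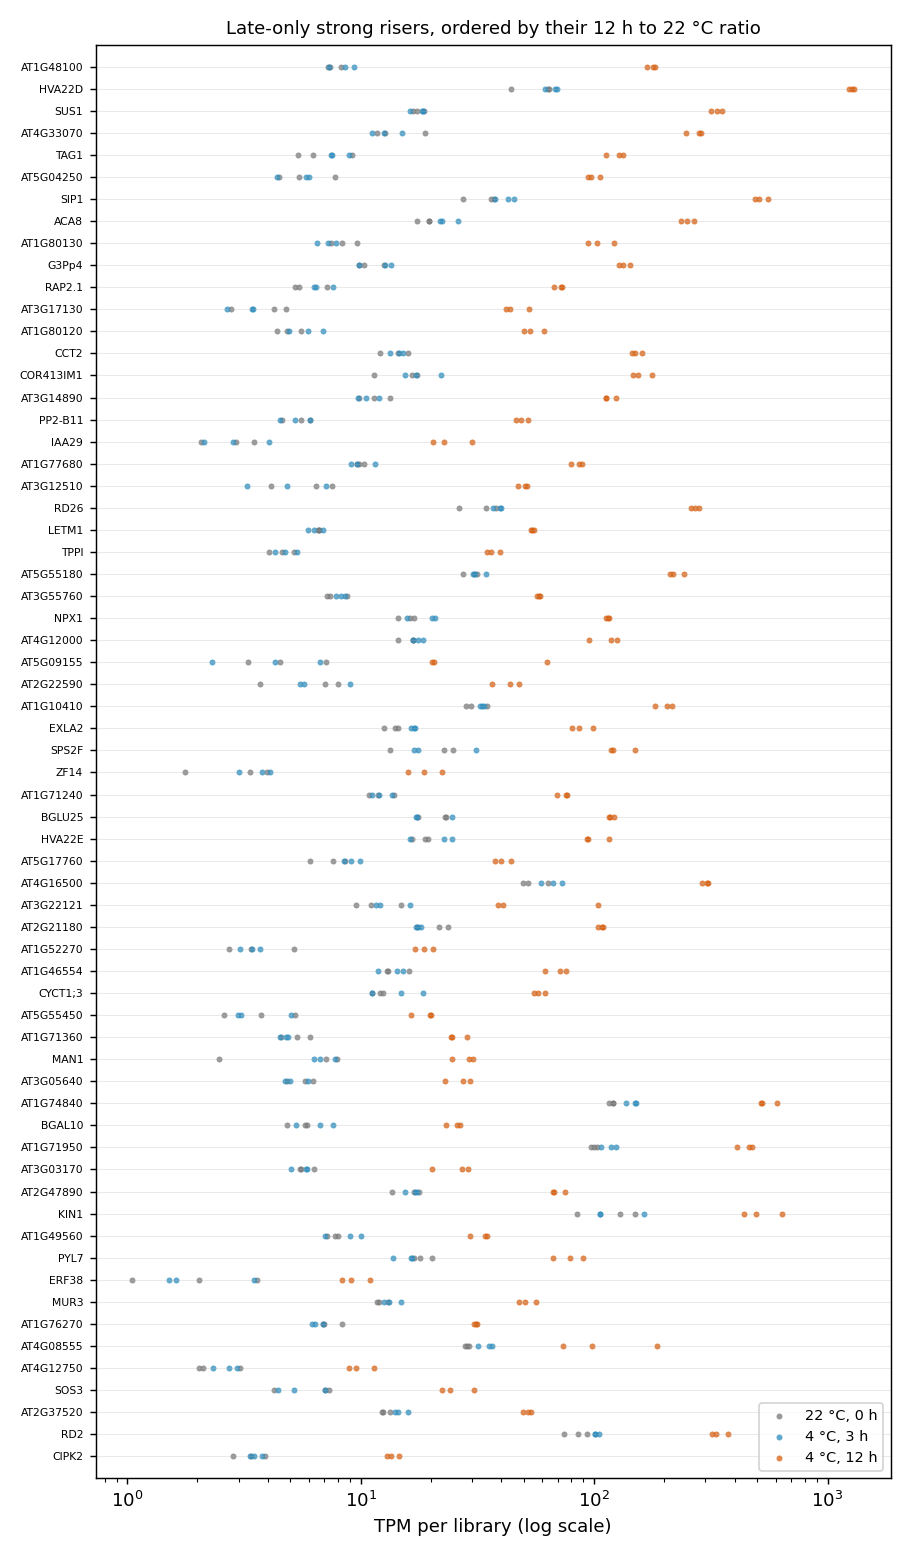
TPM of every library (x axis, logarithmic) for the 64 loci (rows, ordered by the ratio of the 12 h mean to the 22 °C mean), with 3 points per group. The 12 h points (orange) lie to the right of the 22 °C (grey) and 3 h (blue) points in every row, and AT5G09155, AT3G22121 and AT4G08555 each have 1 point far to the right of the other 12 h points.

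Lipid genes include TAG1, which encodes the diacylglycerol acyltransferase DGAT1 that makes storage oil from diacylglycerol. It went from 5.36, 6.24 and 9.22 TPM and 7.56, 7.43 and 8.92 TPM to 128, 133 and 113 TPM. CCT2, a gene of phosphatidylcholine synthesis, went from 12.1, 14.5 and 15.9 TPM and 15.2, 14.6 and 13.4 TPM to 146, 161 and 150 TPM. The 12 h libraries of each lie close together, with a CV of 8.67% for TAG1 and 5.15% for CCT2. Of the 13 other membrane lipid genes of the list, 3 rose and 0 fell by 12 h, with a median of −0.06. These were the desaturases FAD3 (0.98, SE 0.07), ADS2 (4.85, SE 0.15) and SLD1 (1.95, SE 0.08), of which ADS2 and SLD1 had also risen by 3 h.

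Membrane transport is represented by 4 loci. ACA8, a calmodulin-regulated calcium pump of the plasma membrane, went from 17.3, 19.6 and 19.6 TPM and 26.1, 21.8 and 22.3 TPM to 250, 268 and 236 TPM. All its 3 h libraries lay above its 22 °C libraries, by a factor of 1.242 in the means. G3Pp4, of the glycerol 3-phosphate permease family, went from 10.4, 12.6 and 9.81 TPM and 13.5, 12.7 and 9.88 TPM to 133, 127 and 142 TPM. LETM1 and the MATE efflux gene ZF14 reached means of 54.4 and 19.0 TPM. In calcium and abscisic acid signalling, the calcium sensor SOS3 had a ratio of 4.13, the CBL-interacting kinase CIPK2 4.05 and the abscisic acid receptor PYL7 4.28. Of 28 listed genes of abscisic acid, none a member, 18 rose and 3 fell by 12 h, and 7 rose and 2 fell by 3 h.

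By RefSeq description and symbol, 9 of the 64 loci encode transcription regulators, and their 12 h ratios ran from 4.15 to 11.9. RAP2.1, an AP2 factor with a repression motif that binds the CRT/DRE element, went from 5.43, 5.21 and 7.15 TPM and 6.28, 6.45 and 7.58 TPM to 72.4, 72.7 and 67.2 TPM. RD26, a NAC factor of the abscisic acid and drought response, went from 26.4, 38.0 and 34.5 TPM and 36.9, 40.0 and 39.6 TPM to 282, 271 and 261 TPM. AT1G74840, with a MYB-like DNA-binding domain, was the most abundant regulator, with 116, 121 and 121 TPM, then 150, 151 and 137 TPM, then 517, 610 and 524 TPM. Its 3 h libraries lay above all of its 22 °C libraries. IAA29, an Aux/IAA repressor of auxin responses, had a mean of 24.3 TPM at 12 h, the MADS-box gene AT3G12510 49.8 TPM, and the B-box gene AT2G47890 69.7 TPM. ERF38, AT1G49560 and AT4G12750 had 12 h means of 9.47, 32.8 and 9.94 TPM. For AT2G47890, 9.70% of the 31-base words occur in the overlapping locus AT2G47895, and for ERF38 the ratio without 12 h replicate 3 is 3.91.

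Cell wall and glycosyl hydrolase genes make up 9 loci, with ratios from 4.20 to 23.1. AT1G48100, a pectin lyase-like gene, had the largest ratio of the 64, with 7.41, 7.27 and 8.24 TPM at 22 °C, 7.30, 8.57 and 9.38 TPM at 3 h, and 183, 178 and 169 TPM at 12 h. AT3G17130, an invertase or pectin methylesterase inhibitor, had means of 3.93 and 3.19 TPM at 22 °C and 3 h and stood at 43.8, 52.6 and 42.0 TPM at 12 h. AT5G55180, a family 17 glycosyl hydrolase, had a mean of 224 TPM at 12 h. EXLA2, an expansin-like gene, MUR3, a xyloglucan galactosyltransferase, BGLU25, BGAL10, MAN1 and AT1G76270 reached 88.5, 51.6, 118, 25.2, 28.0 and 31.1 TPM. Of the loci for protein turnover, AT5G04250, a cysteine proteinase superfamily gene, rose 16.8 times, and the cystatin gene AT4G16500 reached 301 TPM and the proteinase inhibitor AT1G71950 448 TPM at 12 h. AT5G04250 had 4.45, 7.79 and 5.45 TPM at 22 °C and 106, 96.7 and 94.2 TPM at 12 h.

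A further 19 loci were put under no common role, with ratios from 4.08 to 12.5 and 12 h means from 18.7 to 200 TPM. AT3G14890, a phosphoesterase, went from 9.79, 11.4 and 13.3 TPM and 12.0, 9.73 and 10.5 TPM to 113, 124 and 112 TPM. AT1G77680, the ribonuclease II/R family gene whose upstream bases are shown above, belongs to them, with 9.60, 10.3 and 9.86 TPM at 22 °C and 85.8, 88.4 and 79.3 TPM at 12 h. The 22 °C libraries of AT1G77680 are nearly level. CYCT1;3, a cyclin T gene, had 11.2, 12.1 and 12.4 TPM at 22 °C, 11.2, 18.4 and 14.9 TPM at 3 h, and 55.4, 61.6 and 57.8 TPM at 12 h. AT1G10410 reached a mean of 200 TPM, the SNARE associated AT4G12000 113 TPM and the UDP-glycosyltransferase gene AT2G22590 42.7 TPM. In AT3G55760 and LETM1 the 12 h libraries differed least, with a CV of 1.35% and 1.62%, against a median of 8.30% over the 64 loci and 10.2% over all loci with at least 2 TPM at 22 °C.

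Over the 64 loci, 22 °C replicate 1 was the lowest of its group in 43, and 12 h replicate 2 was the highest of its group in 41. Without the same counts over all loci, a trait of the 64 cannot be told from one of the whole libraries. The loci lie on all chromosomes, 19 on chromosome 1, 8 on 2, 9 on 3, 12 on 4 and 16 on 5, and 34 are on the plus strand. Their genes had a median length of 2184 bases and 4.5 exons, between those of the risers already up at 3 h (1988 bases, 3 exons) and of all loci with at least 2 TPM at 22 °C (2401 bases, 5 exons). These medians were not tested. Of the 64 loci, 48 share no 31-base word with another locus and 2 share more than 5% of theirs, KIN1 and AT2G47890.

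PP2-B11, AT1G80120 and AT1G80130 lie next to each other on chromosome 1. Of these, PP2-B11, an F-box gene of the phloem protein family, AT1G80120, a LURP-one-like gene, and AT1G80130, a tetratricopeptide repeat gene, stand in this order with gaps of 1861 and 551 bases. The first pair is on the plus strand and AT1G80130 on the minus strand. At 12 h PP2-B11 had 48.7, 46.1 and 51.9 TPM, AT1G80120 had 53.3, 50.1 and 61.0 TPM, and AT1G80130 had 103, 122 and 94.2 TPM, with means of 5.41, 4.92 and 8.49 TPM at 22 °C. Their ratios were 9.04, 11.1 and 12.5. Neighbours of the 64 loci are the loci next to them in order of start position, without those among the 64. Of 121, 75 were tested. At 12 h, 21 of these (28.0%) were called higher and 5 (6.67%) lower, against 15.5% and 17.7% of all genes tested. The median change of the neighbours was 0.27, against −0.03 over all genes. This order passed over AT1G02305, AT1G48110, AT3G12520 and AT4G01030, which overlap members. Their means were 80.8, 23.95, 19.9 and 2.275 TPM at 22 °C and 64.5, 26.1, 12.7 and 1.14 TPM at 12 h. The neighbours called higher include the antisense RNAs AT1G07477 and AT3G02535. These reached 9.09 and 9.10 TPM in 12 h replicate 3, and 2.77 and 1.96 TPM in 12 h replicate 2. Of the neighbours apart from the member, 16 of 61 (26.2%) were higher and 3 (4.92%) lower. Those of the same strand gave 15 of 46 and 1, those of the opposite strand 6 of 29 and 4. Among the higher ones are the neighbours of ACA8, AT5G57100 (1.84, SE 0.10) and AT5G57120 (0.52, SE 0.08), ML5 beside COR413IM1 (1.12, SE 0.07) and AT5G63820 beside BGAL10 (4.55, SE 0.45), and among the lower ones AT4G17540 (−1.43, SE 0.19), which overlaps G3Pp4 on the opposite strand by 188 bases. COR314-TM2, the other neighbour of COR413IM1 and the locus that shares the most of its 31-base words (4.14% are shared), was also higher (1.02, SE 0.08). AT1G10400 (4.64, SE 0.26) overlaps AT1G10410 by 45 bases on the same strand and shares 31-base words with it. KIN2 (3.92, SE 0.12) shares words with KIN1, and AT2G21630 (2.195, SE 0.19) overlaps RD2 on the same strand. These were called higher too, and the part of shared reads in their changes was not tested. No test of neighbours as a set was made.

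Transcript usage is the share of each transcript within its locus, which the rule did not use. Of 27 loci with more than 1 transcript, 19 were tested and 2 shifted between 22 °C and 12 h (edgeR diffSpliceDGE, Simes adjusted p under 0.05 and at least 10 percentage points), namely TPPI and AT1G71240, where 2.43% of all loci tested shifted. In TPPI, transcript 1 held 95.9%, 86.6% and 75.4% of the TPM at 22 °C and 50.1%, 40.3% and 43.9% at 12 h, while transcript 3 went from 0% in each library to 26.0%, 36.3% and 30.6% (adjusted p = 0.0393 by diffSpliceDGE, edgeR). In AT1G71240, annotated as a putative chromosome-partitioning protein, transcript 2 went from 95.4%, 84.4% and 88.7% to 34.7%, 28.9% and 36.6%, and transcript 1 from 10.5% ± 5.59 to 66.4% ± 3.83 (SD, n = 3), with an adjusted p of 0.0164 by diffSpliceDGE of edgeR. The 12 h libraries of each locus stand apart from the 22 °C libraries. The 3 h libraries are spread, with 97.9%, 80.1% and 43.9% for TPPI transcript 1 and 0%, 0% and 30.8% for its transcript 3. TPPI had as few as 80 estimated reads in a 22 °C library, over 4 transcripts. A share of 0% there does not show that transcript 3 was absent. Both calls are lost without 22 °C replicate 1 or any single 12 h library, with edgeR adjusted p of 0.12 to 0.153 for TPPI and 0.0537 to 0.0668 for AT1G71240. Without 22 °C replicate 2, TPPI is lost (0.181), and without 22 °C replicate 3 both are lost (0.16 and 0.0926) and AT2G47890 passes. With the replicate block TPPI is lost (0.133 by edgeR) and AT1G71240 is kept (0.0242). By limma, 5 loci passed.

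**Figure D4:**
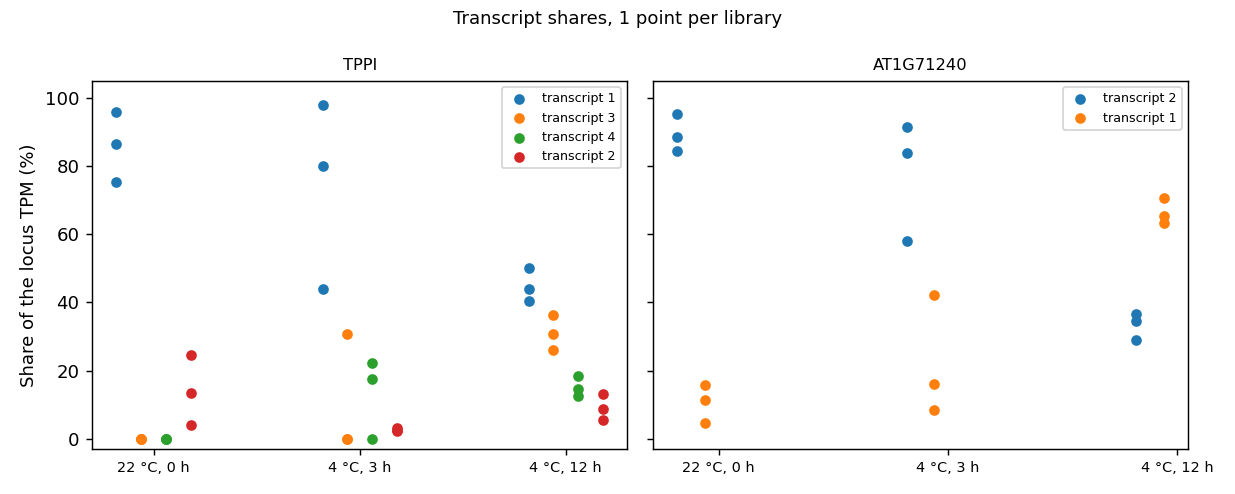
Share of each transcript in the TPM of its locus (y axis, percent) in the 3 groups (x axis), with 1 point per library and a colour per transcript. TPPI transcript 1 is at 75.4% or more at 22 °C and 50.1% or less at 12 h, and AT1G71240 transcript 1 is at 15.6% or less and 63.2% or more.

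Of the 64 loci, 3 are RNAs that are not translated. AT5G09155 lies whole, over 895 bases, on the opposite strand of NPX1, which is itself one of the 64. It had 4.52, 3.30 and 7.11 TPM at 22 °C, 6.69, 4.302 and 2.30 TPM at 3 h, and 20.5, 20.3 and 63.1 TPM at 12 h. NPX1 had 16.3, 14.5 and 17.0 TPM, then 15.8, 20.7 and 20.2 TPM, then 112, 115 and 116 TPM. The third 12 h library of AT5G09155 is about 3 times the others, while those of NPX1 are level. AT3G22121 likewise lies, over 1372 bases, opposite CWLP (AT3G22120), which was at means of 145, 194 and 607 TPM, and AT3G22121 had 11.05, 9.54 and 14.9 TPM at 22 °C and 40.7, 38.9 and 104 TPM at 12 h. AT5G09155 was at 11.4% to 42.3% of NPX1 over the 22 °C and 3 h libraries, and at 18.3%, 17.6% and 54.4% at 12 h. AT3G22121 was at 5.33% to 10.9% of CWLP in the earlier libraries and at 6.93%, 6.24% and 17.0% at 12 h.
The sum over 163 other antisense loci inside genes of at least 50 TPM was 0.435% to 1.08% of the sense sum in 8 libraries and 2.85% in 12 h replicate 3, and 43 of the 77 pairs with antisense reads had their highest share in that library. The part of this in the levels of AT5G09155 and AT3G22121 was not tested. Without that library the ratio of AT3G22121 is 3.36 in place of 5.16, under the limit of 4, and AT5G09155 stays above it (4.09 in place of 6.96). AT4G08555, an uncharacterized protein, has 73.8, 97.9 and 186 TPM at 12 h, and its ratio falls from 4.18 to 3.01 without that library. The remaining RNA, AT1G46554, had 13.0, 16.1 and 13.0 TPM at 22 °C and 75.6, 71.6 and 61.6 TPM at 12 h.

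**Figure D5:**
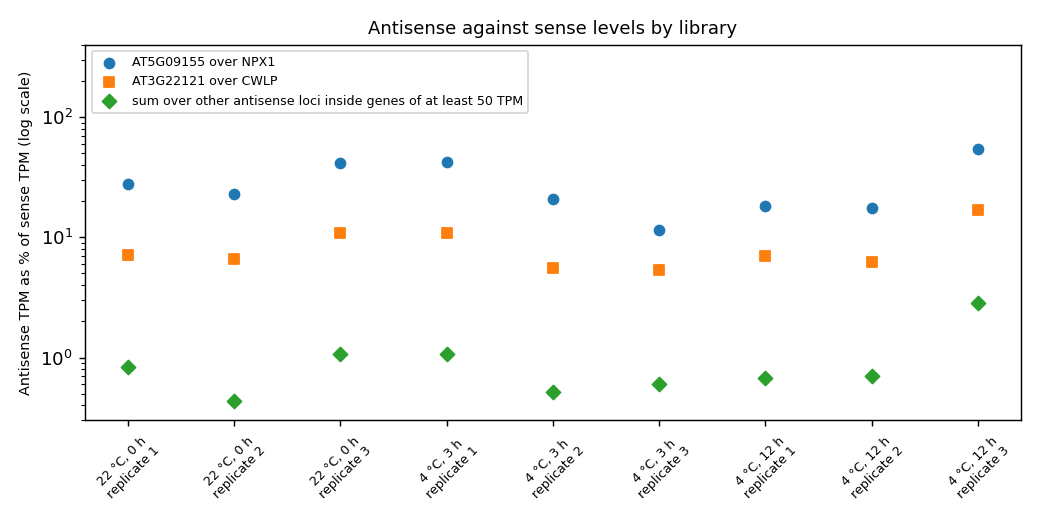
Antisense TPM as percent of sense TPM (y axis, logarithmic) in the 9 libraries (x axis) for AT5G09155 over NPX1, AT3G22121 over CWLP and the sum over 163 other pairs. All series are highest in 12 h replicate 3, at 54.4%, 17.0% and 2.85%.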

How the data were processed

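Steady-state RNA was measured in 9 strand-specific libraries. The authors removed rRNA and adapter reads, checked them with FastQC and assigned them to Araport11 transcripts with Salmon, whose options are not stated. The estimated counts are deposited by the authors per transcript, unscaled and unpooled, and the deposited TPM divides them by effective length, as the authors' Salmon run wrote it. DESeq2 is the authors' test; their comparisons were not used. All 53045 transcripts with an Araport name in RefSeq TAIR10.1 have the same length there.

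TPM was summed per locus to choose loci. Estimated counts were summed per locus and rounded, filtered with filterByExpr, scaled with TMM factors (0.889 to 1.07) and tested with edgeR 4.0.16 quasi-likelihood F tests (R 4.3.3, 1 model over 9 libraries, Benjamini-Hochberg adjustment). Transcript usage was tested with diffSpliceDGE. Other tools were limma 3.58.1, DESeq2 1.42.0, matplotlib 3.10.9, scipy 1.17.1, numpy 2.4.6, pandas 2.3.3 and Python 3.11.15. Libraries hold 15910839 to 24291683 reads. No source ties same-numbered libraries, and the correlation of their deviations lay between -0.197 and 0.105, so the main model has no block. Promoters and 31-base words were read from the RefSeq genome. Tested on simulated data, the gene fit recovered most changes of 1 or 2 on the log2 scale but a minority of those of 0.5, and the usage fit recovered the exchanged transcripts.

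The members and lists were chosen with earlier results of these data known, and the lists come from general knowledge. Of 281 list entries, 270 matched a RefSeq symbol and the others were left out. Values are given for the 20 largest ratios, the 10 highest 12 h levels, list members, adjacent or same-family loci, usage shifts, loci next to a limit and transcription factors. The roles and the loci named beyond these were chosen after their values were seen. p-values weigh a difference between groups against the spread between these libraries. Alternatives were DESeq2, other scalings and filters, 2 groups alone, a replicate block and each library left out.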

Additional observations from a re-analysis of the deposited data

How the results depend on the processing

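The number of late-only risers is 25 with a 3 h window of 0.9 to 1.1 and 121 with 0.67 to 1.5, 134 at 3 times and 23 at 8 times for 12 h. With median-of-ratios scaling it is 83 (53 shared with the 64), with TMM-scaled reads 74 (52 shared), with minima of 1 and 5 TPM 73 and 53, without the condition on single libraries 64, and with each library left out 61 to 73 (49 to 64 shared, the fewest without 22 °C replicates 3 and 2, 49 and 50). Upper quartile factors lowered the fitted 12 h changes by a median of 0.13. Over the alternative fits at 12 h, none of the 64 loci lost its call or changed sign, in 1024 pairs of a locus and a fit. The choice of the loci fixes this result in advance, so it is no test of them.

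At 3 h, 0 loci were called, 7 without a fold minimum and 0 to 1 with each library left out. List genes called at 12 h fell from 146 to 92 with a log2 minimum of 1, and the count of neighbours called stayed within 1.5 times 26. Shifts in transcript usage were 2, 5 with limma, 1 with the replicate block (AT1G71240) and 0 to 2 with each library left out. The replicate block changed no other count by over 1.5 times. The cause was not tested.

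Counted at 2 matches or more, promoter shares were 23.4% (ABRE), 1.56% (G-box), 14.1% (CRT/DRE), 0% (evening element) and 4.69% (short evening element). They were 1.56% (CCA1-binding site), 0% (CAMTA box), 7.81% (W-box), 4.69% (site II) and 0% (telo box). This count of matches is stricter by construction. For ABRE, a single G-box can give 2 matches, because both strands were counted. In AT5G04250 such matches start at −147 and −145. The ABRE share is therefore no share of promoters with separate ABRE sites. In the 250 bases before the start alone, the CAMTA box was in 1.56%. Loci under 5 TPM at 22 °C rest on as few as 16 reads in a library.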
